A study of Mus musculus with 8 samples.

Results

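Mitochondrial ribosomal proteins were taken as the genes of this array whose RefSeq transcript maps to a mouse symbol starting with Mrpl, for the large subunit, or Mrps, for the small subunit. Pseudogenes were left out. There were 78 such genes, 49 of the large and 29 of the small subunit, among 20972 genes with a symbol on the array, and 100 probes stood for them. The choice rests on names alone and used no measured value. RNA of 8 frozen livers was compared on 4 2-colour arrays. The 4 tested animals were homozygous mutants for Pus1 and the other 4 carried wild-type Pus1, and all were C57BL/6J after 5 generations of backcrossing and were 14 to 16 weeks old. Each array set 1 mutant against 1 wild-type animal of the same sex, females in pairs 1 and 2 and males in pairs 3 and 4. The labels do not describe the mutant allele or say in which cells it acts.

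Pus1 encodes a pseudouridine synthase that modifies transfer RNAs in the nucleus, cytosol and mitochondria, and loss of its human counterpart causes a mitochondrial myopathy with sideroblastic anaemia. The mitochondrial ribosome makes the few proteins that mitochondrial DNA encodes, all of them subunits of the respiratory chain and ATP synthase. Its ribosomal RNAs come from mitochondrial DNA, whereas its proteins are encoded in the nucleus, made on cytosolic ribosomes and imported. In liver these ribosomes supply a tissue rich in mitochondria. Some of the proteins have bacterial counterparts and others occur only in mitochondria.

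In mutant livers Pus1 had log2 signals of 6.32, 6.81, 6.63 and 6.75, against 8.46, 8.92, 8.45 and 8.82 in wild-type livers. The groups did not overlap, and the probe was well above background in 0 of 4 mutant and 4 of 4 wild-type livers. The fitted log2 ratio was −2.04 ± 0.11 (SE, 4 arrays), with an adjusted p of 0.0564 (limma, Benjamini-Hochberg over all 17531 genes tested). The labels do not tell whether this probe lies in the altered stretch of the gene. Between 36.8% and 44.0% of spots were well above background in a liver. Of the female livers, wild type 2 stood apart. Across all genes, the deviations of mutant 2 from its group mean correlated at 0.740 with those of wild type 1 and at 0.176 with those of wild type 2, its partner on the array, and mutant 1 correlated at 0.685 with wild type 1 and at 0.237 with wild type 2. In the male pairs the partners correlated at 0.560 and 0.646. Results that rest on pair 2 are therefore given with and without it.

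Of the 78 genes, 77 entered the tests, 48 of the large and 29 of the small subunit, because at least 4 of the 8 livers gave a signal that the scanner software marked as well above background. In all 8 livers 46 large-subunit and 29 small-subunit genes were well above background. Mrpl35 passed in 3 of 4 mutant and 3 of 4 wild-type livers, and Mrpl37 in 4 of 4 mutant and 3 of 4 wild-type livers. The probe of Mrpl21 was well above background in 0 of 8 livers, so that this gene has no ratio. No probe of these genes was saturated. The filter therefore removed 1 gene and hardly selected among the rest.

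Small-subunit transcripts, and to a smaller extent large-subunit transcripts, lay slightly higher in mutant livers, mainly in the female pairs. Over all 4 arrays the median fitted log2 ratio of mutant over wild type was 0.06 for the large subunit, with 35 of 48 genes above 0, and 0.14 for the small subunit, with 26 of 29 above 0. Over all genes tested the median was −0.01, and 46.9% had a ratio above 0. Over the 11852 of these with a symbol, as all 77 genes have, the median was 0.01 and 51.6% were above 0. With median centring of each array in place of loess, the medians were 0.16 and 0.23, and 0.03 over all genes. No single gene passed the test. At an adjusted p below 0.05, 0 of the 77 genes and 0% of the 17531 genes tested were called (limma). The smallest adjusted p among the 77 was 0.541. At an unadjusted p below 0.05, Mrpl42 and Mrpl46 were higher in mutants, 2 genes against 4.73% of all genes, and Mrpl18 was lower, 1 gene against 4.18% of all. Both shares are below the background.

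The array-by-array values show where the shift sat. For the large subunit the median log2 ratios in pairs 1 to 4 were 0.10, 0.23, −0.04 and 0.01, with 33, 30, 19 and 25 of 48 genes above 0. For the small subunit they were 0.19, 0.33, −0.02 and 0.04, with 25, 23, 13 and 19 of 29 genes above 0. The medians of all genes were 0.00, −0.05, 0.02 and −0.02, and those of genes with a symbol 0.03, 0.01, 0.01 and −0.00. Both female pairs thus lay above all genes, pair 2 most, and both male pairs lay near them. Without pair 2, in a fit that gives the male pairs most of the weight, the medians were 0.04 for the large and 0.06 for the small subunit. Then 33 of 48 and 20 of 29 genes were above 0. Pair 2 gave the highest of the 4 ratios for 22 of 48 large-subunit and 18 of 29 small-subunit genes.

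**Figure D1:**
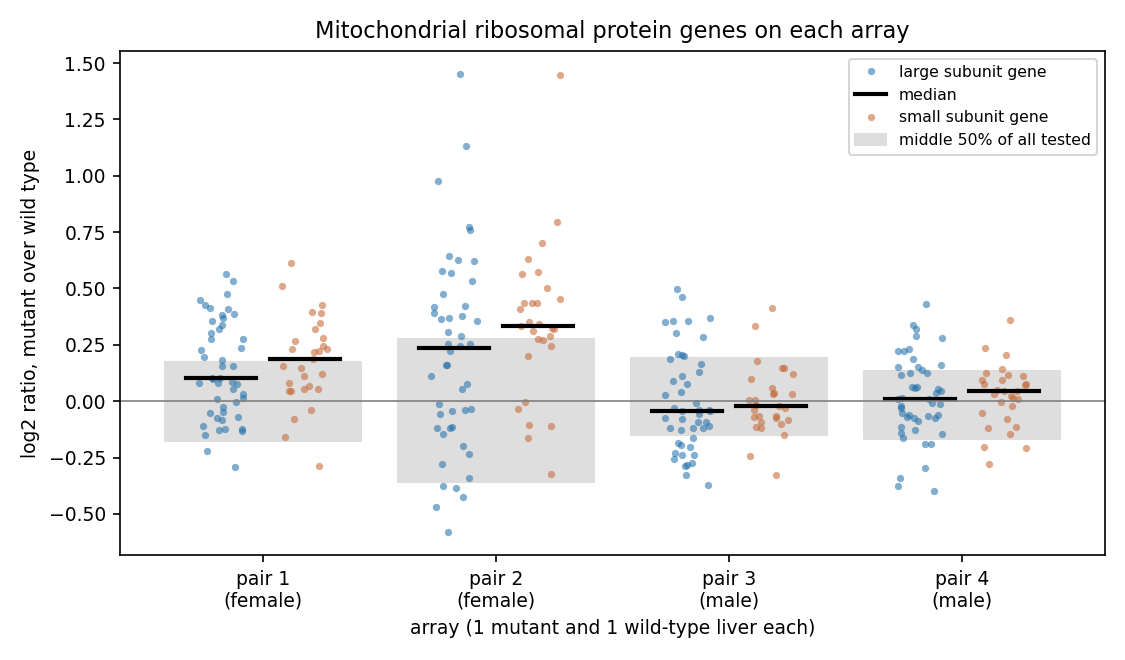
Log2 ratio of mutant over wild type (vertical axis) for each of 48 large-subunit and 29 small-subunit genes in each pair (horizontal axis), with black bars at the median and a grey band over the middle 50% of all genes tested. The small-subunit medians of 0.19 and 0.33 in the female pairs sit above those of −0.02 and 0.04 in the male pairs, and the spread of single genes is widest in pair 2.

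The normalized levels of the single livers gave the same picture from the other side. Each gene's log2 level was set against its own mean over the 8 livers. The median over small-subunit genes was 0.27 and 0.23 in the female mutants and −0.04 and −0.12 in the male mutants, against 0.06 and −0.10 in the female wild types and −0.05 and −0.15 in the male wild types. The 2 female mutants had the highest medians. For the large subunit the medians were 0.12 and 0.14 in the female mutants and −0.07 and −0.07 in the male mutants, against −0.00 and −0.03 in the female wild types and −0.02 and −0.12 in the male wild types. Among small-subunit genes, 25 and 23 of 29 lay above their own mean in the female mutants, against 18 and 5 in the female wild types. Of the 77 genes, 0 had all 4 mutant livers above all 4 wild-type livers, a pattern found for 1.34% of all genes, and 0 had all 4 below, found for 0.851%.

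**Figure D2:**
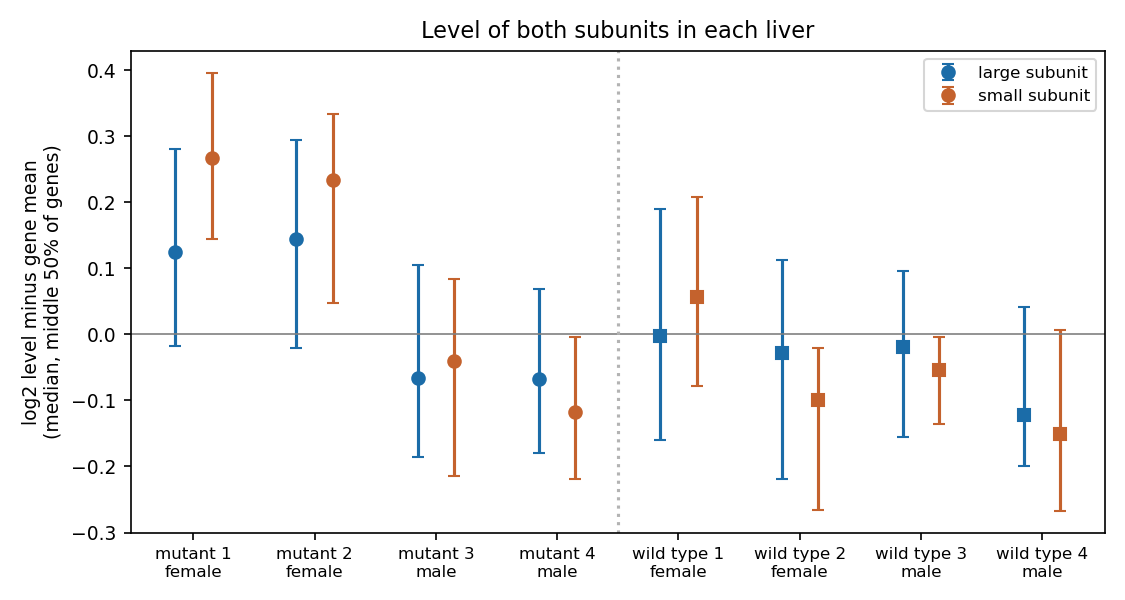
Median over genes of the log2 level minus the gene's mean over 8 livers (vertical axis), for the large and the small subunit in each liver, mutants at the left and wild types at the right. Bars span the middle 50% of genes, and the small-subunit medians of the 2 female mutants, 0.27 and 0.23, are the highest.

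Markers of some other liver cells also differed between the partners of an array. Of 12 Kupffer cell markers, 11 were tested and all 11 had ratios above 0, with a median log2 ratio of 0.66 and array medians of 0.34, 1.12, 0.50 and 0.43. Their summed signal ran between 45626 and 67718 in mutant livers and between 26185 and 51568 in wild-type livers. Of 7 neutrophil markers, 4 were tested and all 4 had ratios above 0, with a median of 0.96, array medians of −0.02, 1.69, 1.53 and 0.56, and a summed signal between 5383 and 7838 in mutants and between 2293 and 5743 in wild types. Of 8 proliferation markers, 7 were tested, with a median of 1.22 and 6 above 0. Their summed signal ran between 2062 and 9374 in mutants and between 1069 and 2176 in wild types. The hepatocyte markers, 8 of 8 well above background in all livers, had a median of −0.14 with 2 above 0. Their array medians were 0.01, −0.31, −0.03 and −0.04. Endothelial markers had a median of 0.07 with 4 of 7 tested above 0, and stellate cell markers 0.07 with 3 of 5. Bile duct cell markers had 0.02 with 2 of 3, lymphocyte markers −0.15 with 1 of 4, and erythroid markers −0.13 with 1 of 4. None of these markers passed the test (0 called). All 4 muscle markers were well above background in no liver. The part of cell composition in the ribosomal protein values was not tested, and in whole liver a change in cell numbers and one in RNA per cell cannot be told apart.

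Among large-subunit genes, 5 had ratios above 0 on all 4 arrays. Together with 5 of the small subunit this made 10 of 77, while 8.98% of all genes and 1168 of the 11852 with a symbol did so. Mrpl46 (NM_023331), a protein found only in mitochondrial ribosomes, had log2 levels of 9.57, 9.53, 8.54 and 8.68 in the mutants, against 9.12, 8.40, 8.37 and 8.40 in the wild types. The 2 female mutants were the highest, the male mutants lay just above the lower wild types, and wild type 1 overlapped the mutants. The ratios were 0.45, 1.13, 0.17 and 0.28 in pairs 1 to 4, and the fitted value was 0.51 ± 0.17 (SE, 4 arrays), a 1.42-fold difference, with an adjusted p of 0.541 (limma). Without pair 2 it was 0.29.

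Mrps11 (NM_026498), the counterpart of a bacterial protein of the small subunit's platform, lies head to head with Mrpl46. Its levels were 8.84, 8.63, 8.33 and 8.20 in the mutants, against 8.23, 7.93, 8.18 and 8.19 in the wild types, with ratios of 0.61, 0.70, 0.15 and 0.01. All mutants but the last exceeded every wild type. The fitted log2 ratio was 0.37 ± 0.16 (SE), with an adjusted p of 0.541 (limma), and 0.20 without pair 2. In RefSeq's GRCm38.p6 annotation the starts of the 2 genes are 42 bases apart on opposite strands. Only the stretch between the starts lies upstream of both. The pair is shown because its members, 1 of each subunit, are the highest of the large and of the small subunit by fitted ratio. The 300-base windows run from 250 bases before to 50 after each start. Capitals mark a match to the YY1 element AAGATGGCG on either strand, here 108 bases before the start of Mrps11. This match is not between the 2 starts, but lies past the start of Mrpl46 and outside the window of Mrpl46. The window of Mrpl46 is chr7:78783040-78783339, minus strand, and that of Mrps11 is chr7:78782881-78783180, plus strand (GRCm38.p6, RefSeq).
Mrpl46: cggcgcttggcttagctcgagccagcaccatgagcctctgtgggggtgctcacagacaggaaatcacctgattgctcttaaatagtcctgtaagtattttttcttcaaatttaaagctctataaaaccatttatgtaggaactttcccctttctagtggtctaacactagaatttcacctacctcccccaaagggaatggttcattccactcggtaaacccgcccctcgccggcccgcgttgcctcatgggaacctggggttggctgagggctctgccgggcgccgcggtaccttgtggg
Mrps11: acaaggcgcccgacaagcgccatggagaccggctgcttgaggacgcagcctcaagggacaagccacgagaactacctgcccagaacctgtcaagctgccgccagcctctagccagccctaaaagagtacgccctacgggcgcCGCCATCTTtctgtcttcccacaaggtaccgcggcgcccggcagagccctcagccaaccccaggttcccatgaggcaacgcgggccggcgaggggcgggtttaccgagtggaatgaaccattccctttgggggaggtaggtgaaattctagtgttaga

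Mrpl42 (NM_026065), another protein without a bacterial counterpart, had levels of 9.86, 9.72, 9.44 and 9.01 in the mutants, against 9.38, 9.14, 9.08 and 8.86 in the wild types. Within every pair the mutant was higher, but the levels overlapped between pairs. Its ratios of 0.48, 0.58, 0.37 and 0.15 varied less than those of Mrpl46, and the fitted value was 0.39 ± 0.12 (SE), a 1.31-fold difference, with an adjusted p of 0.541 (limma). It was 0.29 without pair 2. Mrps27 (NM_173757), a small-subunit protein with RNA-binding pentatricopeptide repeats, had levels of 8.84, 8.74, 8.48 and 8.18 in the mutants, against 8.61, 8.11, 8.07 and 8.15 in the wild types. Wild type 1 lay among the mutants and the other wild types lay below all of them. The fitted ratio was 0.33 ± 0.14 (SE), with an adjusted p of 0.541 (limma), and 0.18 without pair 2. Mrps27 lies 108 bases head to head from Ptcd2, which had a fitted ratio of 0.30.

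The other genes above 0 on all 4 arrays had smaller or less even ratios. Mrpl28, the counterpart of a bacterial large-subunit protein, had ratios of 0.05, 1.45, 0.21 and 0.22. Its levels were 9.82, 9.80, 9.40 and 9.12 in the mutants, against 9.76, 8.35, 9.19 and 8.90 in the wild types, so that wild type 2 was the low one. The fitted ratio of 0.48 ± 0.21 (SE) became 0.18 without pair 2. Mrpl30 and Mrpl54, 1 with and 1 without a bacterial counterpart, had fitted log2 ratios of 0.26 and 0.16, and 0.12 and 0.12 without pair 2. In the small subunit Mrps14 and Mrps16 have bacterial counterparts, and MRPS16 mutations cause a mitochondrial disease in humans. Mrps14 had ratios of 0.43, 0.24, 0.10 and 0.11, and Mrps16 of 0.25, 0.29, 0.03 and 0.01. Mrps36 had 0.19, 0.32, 0.18 and 0.09, and despite its name its product is now known as a part of the 2-oxoglutarate dehydrogenase complex. None of these reached an adjusted p below 0.541.

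Mrpl18 (NM_026310) was the 1 gene of the 77 below 0 on all 4 arrays, a pattern of 8.71% of all genes. Its product belongs to the central protuberance, the knob of the large subunit that in bacteria binds the smallest ribosomal RNA. Its levels were 11.68, 11.53, 11.26 and 11.41 in the mutants, against 11.97, 11.96, 11.63 and 11.47 in the wild types. Each mutant was below its partner, the males were lower than the females in both genotypes, and the groups overlapped. The ratios were −0.29, −0.42, −0.37 and −0.06, and the fitted value was −0.29 ± 0.11 (SE), with an adjusted p of 0.541 (limma), and −0.20 without pair 2. Its head-to-head neighbour Tcp1, a subunit of the cytosolic chaperonin that folds actin and tubulin, starts 238 bases away and had ratios of 0.50, 0.73, 0.06 and 0.06, with a fitted value of 0.34 ± 0.15 (SE). Tcp1 was named after its values were seen. The 2 genes thus had opposite signs on every array, unlike Mrpl46 and Mrps11.

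**Figure D3:**
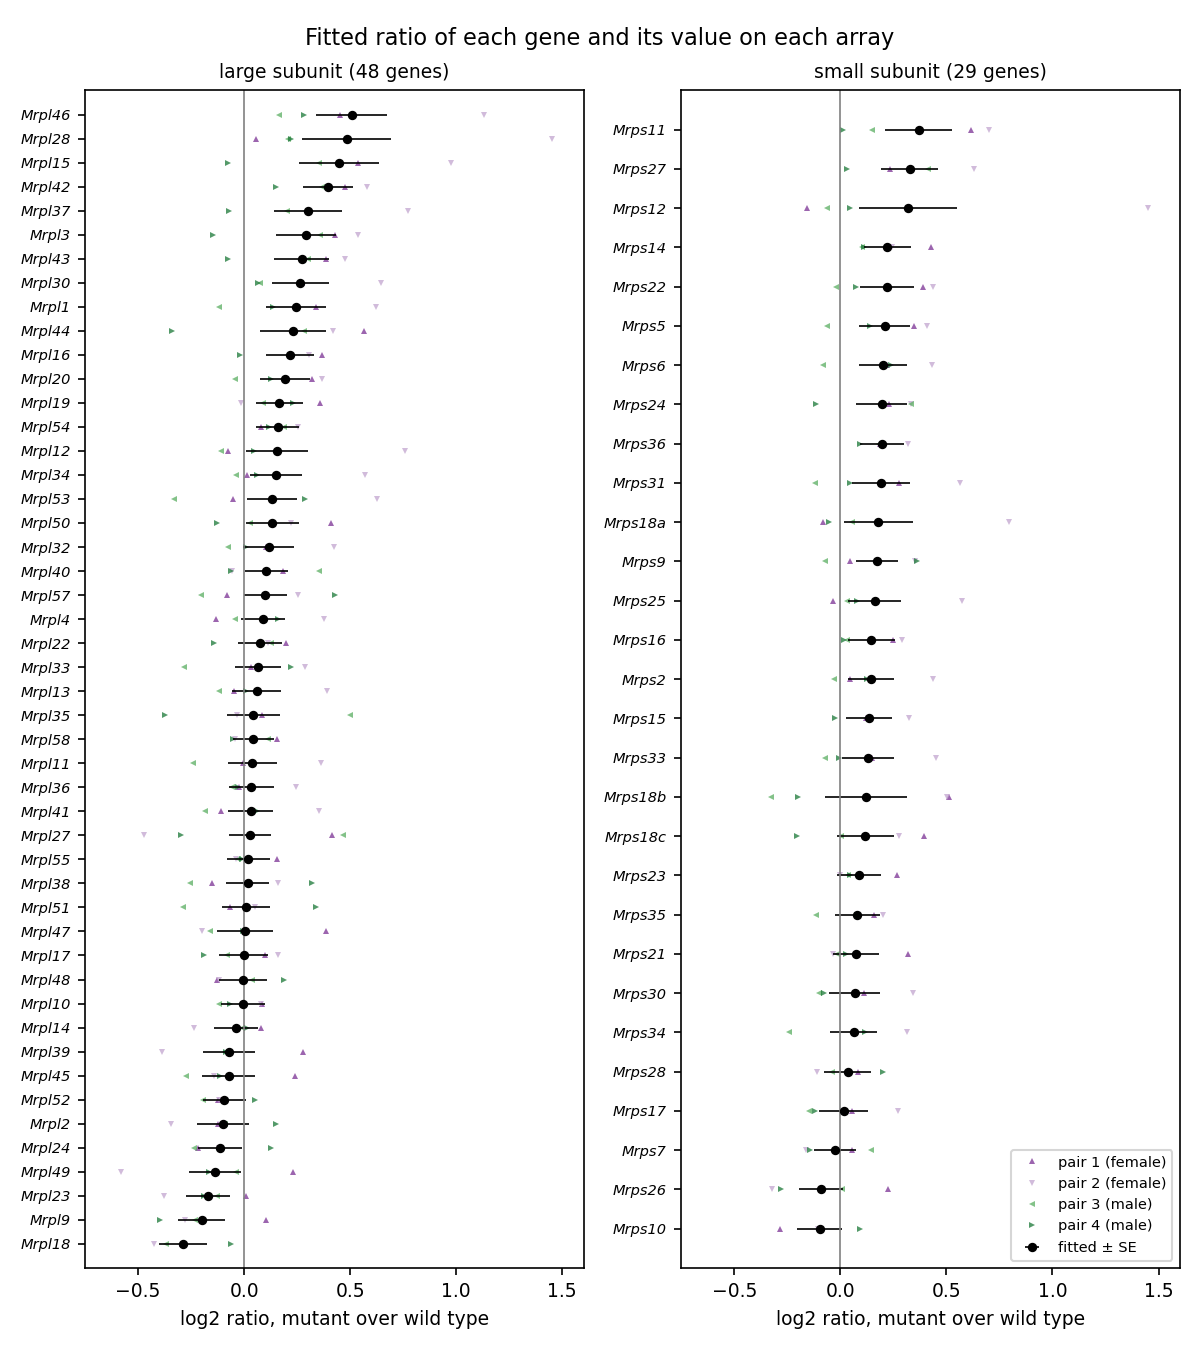
Fitted log2 ratio of mutant over wild type with its SE (black points and lines, horizontal axis) for each of 48 large-subunit genes (left) and 29 small-subunit genes (right), with the ratio of each pair as a triangle. The fitted ratios run between −0.29 and 0.51 for the large subunit, and 26 of 29 small-subunit genes lie above 0.

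By role, the medians of the groups of large-subunit proteins ran between −0.07 and 0.09. The 4 stalk genes, of the arm that recruits translation factors, had a median fitted log2 ratio of 0.09 with 3 above 0, and −0.03 with 1 above 0 without pair 2. The stalk base protein Mrpl10 had −0.01, or 0.06 with median centring, and the stalk protein Mrpl12 had 0.16, or −0.02 without pair 2. The 7 genes of the tunnel exit, where the new chain leaves, had a median of −0.07, or 0.01 with median centring and 0.04 without pair 3. The 6 of the central protuberance had 0.02, or −0.02 without pair 4. Of the large-subunit genes with a bacterial counterpart 29 were tested, with a median of 0.06 and 21 above 0, and of those without one 19, with 0.10 and 14 above 0. In the small subunit the medians were 0.14 for 16 genes with a counterpart, 14 of them above 0, and 0.13 for 9 without, 8 of them above 0. Without pair 2 the medians were 0.02 and 0.08 for large-subunit and small-subunit genes with a counterpart, and 0.06 and 0.05 for those without, so that the order turned in the second class.

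Mutations in the human counterparts of Mrpl3, Mrpl44 and Mrps22 cause mitochondrial disease, and their fitted ratios were above 0 without passing the test. Mrpl3, next to the catalytic centre, had 0.29 ± 0.14 (SE), with 0.43, 0.54, 0.36 and −0.15 in the 4 pairs. Mrpl44, which resembles a ribonuclease, had 0.23 ± 0.16 (SE), with 0.56, 0.42, 0.28 and −0.34. Pair 4 was the only one below 0 for both. Without pair 2, when pair 4 weighs as much as pairs 1 and 3 together, Mrpl3 was at 0.12 and Mrpl44 at 0.04. Mrps22, a small-subunit protein found only in mitochondria, had 0.22 ± 0.13 (SE), and 0.13 without pair 2. Mrpl58, a peptidyl-tRNA hydrolase of the release factor family that became part of the ribosome, had 0.04 ± 0.10 (SE), with levels between 12.83 and 13.12 in mutants and between 12.76 and 13.00 in wild types. Mrps12, of the decoding centre, had ratios of −0.16, 1.45, −0.06 and 0.05. Its level ran between 12.47 and 13.20 in the mutants and between 12.54 and 13.11 in 3 of the wild types, and was 11.75 in wild type 2. Its fitted ratio of 0.32 ± 0.23 (SE) became −0.03 without pair 2.

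Mrps18a, Mrps18b and Mrps18c are paralogs of 1 bacterial protein, and the product of Mrps18a sits in the large subunit, as does that of Mrps30. Mrps18a had ratios of −0.08, 0.79, 0.06 and −0.05, again with a low wild type 2. Mrps18b had 0.51, 0.50, −0.33 and −0.20, so that the female pairs opposed the male pairs. Mrps18c had 0.40, 0.27, 0.00 and −0.21. The fitted values of 0.18, 0.12 and 0.12 were each smaller than the SD over the 4 arrays of 0.41, 0.45 and 0.27. Without pair 2 they were −0.03, −0.05 and −0.003. Mrps30 had a fitted ratio of 0.07, and −0.04 without pair 2. Counting Mrps18a and Mrps30 with the large subunit and leaving out Mrps36 gave medians of 0.07 for 50 large-subunit genes and 0.14 for 26 small-subunit genes.

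The difference of the genotype ratio between the sexes was then tested directly. Female pairs had a median fitted ratio of 0.13 for the large and 0.27 for the small subunit, against 0.01 and 0.02 in male pairs. The female values rest on pairs 1 and 2, and in pair 1 alone the medians were 0.10 and 0.19. The difference was not fitted without pair 2. The female minus male difference had a median of 0.18 for the large and 0.23 for the small subunit. It was −0.03 over all genes and 0.01 over the 11852 genes with a symbol. It was above 0 for 60 of the 77 genes, against 46.2% of all genes and 6035 of the 11852 with a symbol. Both female pairs were above 0 for 40 of 77 genes (26.9% of all genes), and both male pairs for 14 (21.1%). In 6 genes both female pairs were above and both male pairs below 0 (3.74%). Of the 11852 genes with a symbol, 3630, 2601 and 506 had these patterns, in the same order. No gene of the 77 was called for the difference (0 of 77, 0% of all genes), and the smallest adjusted p was 0.823 (limma, 1 residual degree of freedom). At an unadjusted p below 0.05 there were 2 genes, against 5.85% of all.

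Those 2 were Mrps18b and Mrps11. Mrps18b had levels of 13.07 and 12.92 in female mutants, against 12.56 and 12.41 in female wild types, and 12.38 and 12.60 in male mutants, against 12.71 and 12.80 in male wild types. Its ratio was 0.51 in females and −0.27 in males, a difference of 0.77 ± 0.21 (SE) with an adjusted p of 0.823 (limma). Mrps11 had 0.66 in females and 0.08 in males, a difference of 0.58 ± 0.21 (SE). Mrpl46 differed by 0.57 ± 0.25 (SE) and Mrpl1, of the stalk that guides spent transfer RNA out, by 0.47 ± 0.21 (SE). With 2 animals per sex and genotype, and wild type 2 among them, none of these differences exceeded the error of the test after adjustment.

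**Figure D4:**
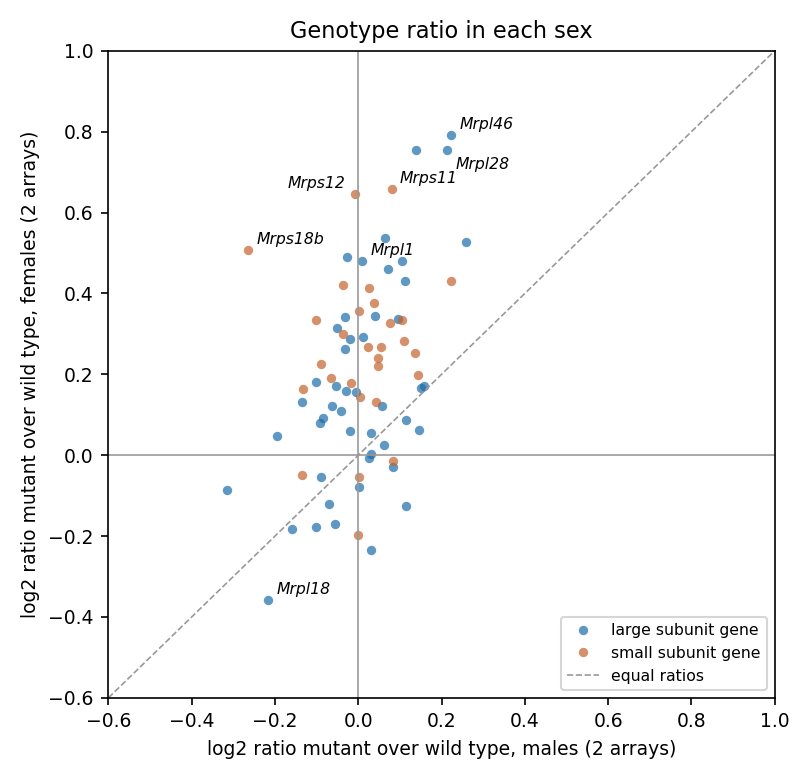
Fitted log2 ratio of mutant over wild type in the 2 female pairs (vertical axis) against that in the 2 male pairs (horizontal axis), 1 point per gene, with a dashed line where both are equal. Of 77 genes, 60 lie above the line, and Mrps18b lies farthest from it at 0.51 and −0.27.

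Between males and females themselves, averaged over both genotypes, several of these genes had lower levels in males. Males and females were never hybridised to the same array, so that sex and array cannot be told apart. The median male minus female difference was −0.10 for the large and −0.19 for the small subunit, and 0.00 over all genes. Over the 11838 genes with a symbol, as all 77 have, it was −0.05, so that part of the shift is shared by named genes. The difference was above 0 for 30 of the 77 genes, against 50.4% of all genes and 5206 of the 11838 with a symbol. The gap of the small subunit lay mainly in the mutants, with liver medians of −0.04 and −0.12 in males and 0.27 and 0.23 in females. In wild types the sexes overlapped, with −0.05 and −0.15 in males and 0.06 and −0.10 in females. Between 36.8% and 37.9% of spots were well above background in male livers, against 42.2% to 44.0% in female livers. Erythroid markers were a median of 2.25 log2 units higher in males, with 4 of 4 above 0 and 1 called, and proliferation markers 1.03 higher, with 7 of 7 above 0 and 0 called. Their part in the sex difference was not tested. The separate-channel fit may be strict, because its within-spot correlation was estimated too high in simulated signals. Whether this holds for the measured signals was not tested. In this fit 0 of 77 genes were called, against 0.211% of all genes (limma). At an unadjusted p below 0.05, 14 were lower in males (7.81% of all genes) and 0 were higher (8.61%). Of the 11838 genes with a symbol, 1152 were lower and 789 higher at that level. Mrpl1 had levels of 7.59 and 7.77 in male mutants and 7.71 and 7.64 in male wild types, against 8.63 and 8.76 in female mutants and 8.29 and 8.13 in female wild types. All males lay below all females, and the difference was −0.78 ± 0.13 (SE), with an adjusted p of 0.108 (limma).

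Mrpl50, a large-subunit protein found only in mitochondria, was at −0.70 (adjusted p = 0.126, limma), Mrps5 at −0.65 (adjusted p = 0.152) and Mrps6 at −0.58 (adjusted p = 0.171). Mrps5 and Mrps6 are counterparts of bacterial proteins. With the 2 channels of an array averaged and 2 arrays set against 2, a fit chosen after the data were seen, 9 of the 77 genes were called lower in males (6.00% of all genes) and 0 higher (5.83%). Of the 11852 genes with a symbol, 881 were called lower and 537 higher. Among the 9 were Mrpl1, Mrpl50, Mrps5, Mrps6 and Mrps22, with adjusted p of 0.0197, 0.0285, 0.0344, 0.0424 and 0.0487 (limma). The calls thus depend on how the error between arrays is estimated.

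For 22 genes a pair of probes could be compared, and 7 of them had fitted ratios of opposite sign. The median absolute difference between the probes was 0.10 and the largest was 0.40, in Mrps18b, where the brighter probe had 0.12 and the other 0.52. That other probe had ratios of 0.91, 1.18, 0.22 and −0.21, again higher in the female pairs. For Mrpl39 the brighter probe gave −0.07 and the other 0.25, for Mrpl49 −0.14 and 0.13, for Mrpl41 0.03 and −0.21, and for Mrps25 0.16 and −0.19. For Mrpl10 they gave −0.01 and 0.16, for Mrps26 −0.09 and 0.09, and for Mrps7 −0.03 and 0.02. The other probe of Mrpl39 was well above background in only 2 of 4 mutant and 2 of 4 wild-type livers. That of Mrpl41 was so in 3 of 4 and 3 of 4, and those of the rest of these 7 genes in all 8 livers. With median centring in place of loess the brighter probes of Mrpl39 and Mrps7 were above 0, at 0.01 and 0.07. The median difference between probes was thus about as large as the median fitted ratio of the 77 genes, 0.10.

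**Figure D5:**
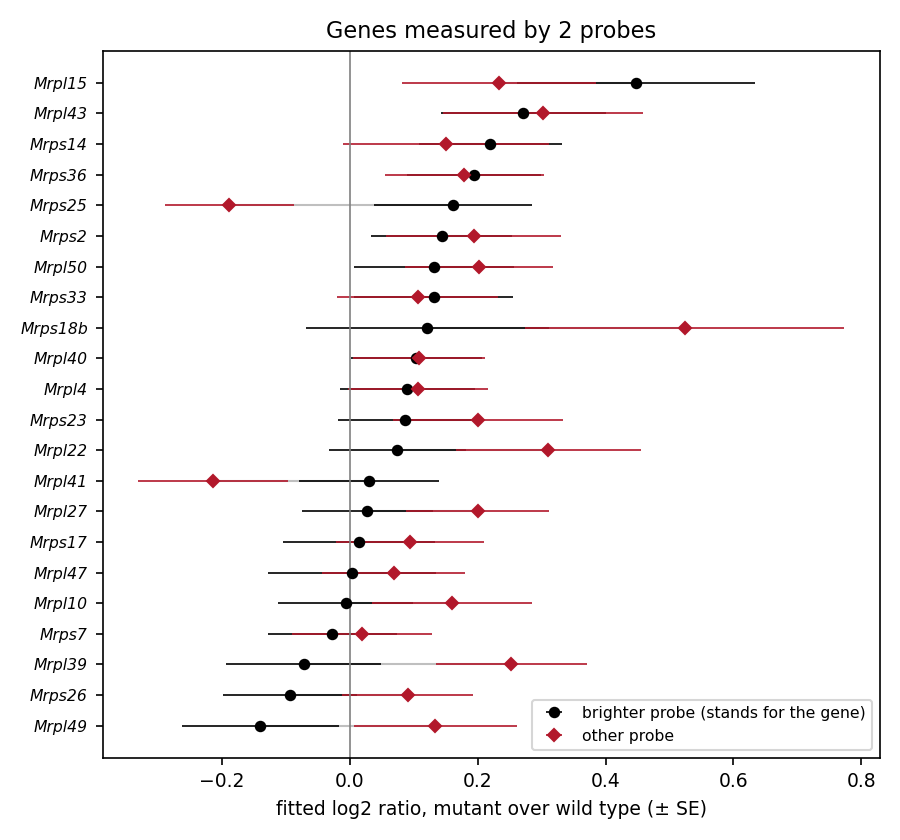
Fitted log2 ratio of mutant over wild type with its SE (horizontal axis) for the brighter probe (black) and the other probe (red) of each of 22 genes. In 7 genes the 2 probes lie on opposite sides of 0, and in Mrps18b they differ most, at 0.12 and 0.52.

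The factors that build the mitochondrial ribosome lay close to its proteins. Of 31 genes for ribosomal RNA modification and assembly, 30 were tested, with a median of 0.07 and 20 above 0, and 0 were called. The median was 0.15 under median centring and 0.03 without pair 1. Mettl15, a methyltransferase of the small ribosomal RNA, had 0.37 ± 0.13 (SE), and Tfb1m, which methylates the same RNA, had 0.25 ± 0.12 (SE). Mrm1, a methyltransferase of the large ribosomal RNA, had −0.23 ± 0.22 (SE), and the assembly GTPase Gtpbp10 had −0.13 ± 0.11 (SE). Without pair 2 Mettl15 was at 0.23, Tfb1m at 0.15, Mrm1 at 0.02 and Gtpbp10 at −0.05. Of the 5 ribosomal proteins with other names, Chchd1 had 0.25, Aurkaip1 0.12, Ptcd3 0.07, Gadd45gip1 −0.01 and Dap3 −0.07, and with median centring these last were at 0.08 and 0.02. Their median was 0.07 with 3 above 0, and −0.01 with 2 above 0 without pair 2.

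Other gene groups differed in their medians. The 59 tested genes of nuclear-encoded respiratory chain and ATP synthase subunits had a median of 0.10 with 49 above 0, and array medians of 0.17, 0.12, −0.04 and 0.07. Their median was 0.21 with 59 above 0 under median centring, and 0.03 with 35 above 0 without pair 1. The 75 cytosolic ribosomal protein genes tested had a median of −0.06 with 19 above 0, and array medians of −0.10, −0.09, −0.07 and 0.01, but with median centring their median was 0.05 with 54 above 0. In both lists 0 genes were called. Under both normalizations the cytosolic ribosomal proteins lay below both mitochondrial subunits. Among regulators of nuclear genes for mitochondria, 11 of 12 were tested and their median was −0.06, or 0.00 with median centring. Tfam, which packages mitochondrial DNA, had 0.18, the GABP subunits Gabpa and Gabpb1 had 0.07 and −0.15, and the coactivator Ppargc1a had −0.28. Without pair 2 these were at 0.04, 0.01, −0.08 and −0.16.

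The promoters of these genes were read for motifs of such regulators in RefSeq's windows of 300 bases (GRCm38.p6), available for 69 of the 78 genes. The ETS core CCGGAAG, which GABP binds, was in 26 of 69 (37.7%), against 12.9% of 17492 protein-coding genes and 9.93% of all 27025 genes with a window. The YY1 element AAGATGGCG was in 8 (11.6%), against 2.14% of protein-coding genes and 1.64% of all genes. The NRF1 core GCATGCGC was in 8 (11.6%), against 3.94% and 3.05%. The box GGGCGG, which SP1 binds, was in 34 (49.3%), against 49.2% and 38.2%, and TATAAA was in 5 (7.25%), against 14.8% and 15.7%. Both strands were searched, and matches of different motifs may share bases. Genes with the ETS core had a median fitted ratio of 0.10 over 25 tested genes, and those without it 0.13 over 43. For the other motifs the medians with and without a match were 0.25 over 8 and 0.10 over 60 genes for YY1, 0.03 over 8 and 0.13 over 60 for NRF1, 0.13 over 34 and 0.07 over 34 for SP1, and 0.20 over 5 and 0.11 over 63 for TATAAA. These are descriptions with no test.

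The windows of the other 3 genes described first are given to show these motifs in place, with capitals for the ETS core and the YY1 element on either strand. That of Mrpl42 is chr10:95501900-95502199, minus strand, with a YY1 element 27 bases after the start. That of Mrps27 is chr13:99344536-99344835, plus strand, with an ETS core 48 bases before and a YY1 element 14 bases after the start. That of Mrpl18 is chr17:12916042-12916341, minus strand, with an ETS core 240 bases before the start. This match covers the start of Tcp1, which lies 238 bases from that of Mrpl18 on the opposite strand. A match describes the letters and is not a measured binding site.
Mrpl42: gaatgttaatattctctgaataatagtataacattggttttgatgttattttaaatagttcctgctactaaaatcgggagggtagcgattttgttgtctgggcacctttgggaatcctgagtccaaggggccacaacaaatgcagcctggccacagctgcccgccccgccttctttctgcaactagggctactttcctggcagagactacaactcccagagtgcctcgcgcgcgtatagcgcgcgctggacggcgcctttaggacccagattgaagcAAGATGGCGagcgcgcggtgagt
Mrps27: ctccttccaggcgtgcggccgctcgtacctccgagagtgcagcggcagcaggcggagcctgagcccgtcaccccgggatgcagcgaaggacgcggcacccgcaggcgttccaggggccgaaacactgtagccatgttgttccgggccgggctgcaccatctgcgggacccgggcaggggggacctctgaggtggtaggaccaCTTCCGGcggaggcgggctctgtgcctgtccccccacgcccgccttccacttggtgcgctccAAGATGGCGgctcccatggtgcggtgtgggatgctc
Mrpl18: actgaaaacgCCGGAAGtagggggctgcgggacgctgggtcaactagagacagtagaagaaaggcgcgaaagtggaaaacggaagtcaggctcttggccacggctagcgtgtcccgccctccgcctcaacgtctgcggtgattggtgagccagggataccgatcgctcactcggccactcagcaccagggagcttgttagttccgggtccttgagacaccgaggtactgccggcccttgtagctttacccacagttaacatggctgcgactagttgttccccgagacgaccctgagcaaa

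Several of these genes start close to a gene on the opposite strand. Among the 69 with a promoter window, 27 had such a neighbour. Its start lay less than 1000 bases upstream, or the 2 genes overlapped at their starts by less than 300 bases. The share of all genes with such a neighbour was not computed. In 20 pairs the partner was not a mitochondrial ribosomal protein gene and both were tested. The ribosomal protein gene was above 0 in 14 and the partner in 13, and the medians were 0.07 and 0.06. The signs were equal in 15 of 20, and the share among other such pairs was not computed. Of genes near the mutated locus, Mrpl1, Mrps18c and Mrps17 lie within 20 Mb of Pus1 in GRCm38.p6, with fitted ratios of 0.24, 0.12 and 0.01. Sequence that stays linked to the mutated allele after 5 backcross generations was not tested.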

How the data were processed

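RNA of 4 mutant and 4 wild-type livers was measured on 4 2-colour arrays of 1 slide and 1 scan, with groups taken from the labels. Per the file headers, Agilent Feature Extraction 10.7.3.1 wrote the files, which hold a median intensity of each spot and its background, a processed intensity, and other columns of 0 or 1 marks per spot for well above background, saturated and outlier. Deposited as well was a series table of log2 values, in which the median of each probe over the samples was 0 as far as the values show. Its scale and direction were read from the values. The files give median signals, so these replaced the planned mean signals. Another 56 columns were not used.

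From these, signals were corrected with normexp (offset 50) and loess with limma (version 3.58.1, in R 4.3.3, tables read with data.table, version 1.17.8). Spots marked as outliers or non-uniform were dropped, controls got weight 0 in the loess, and replicate spots were averaged. A probe was kept if 4 of the 8 samples or more were well above background (22031 of 55681), and the brightest stood for a gene, which gave 17531 genes or transcripts, 11852 with a symbol. Symbols came from RefSeq accessions and named 27656 probes. Levels are normalized log2 signals of 1 probe and are not compared between genes. Ratios were fitted with genotype and dye coefficients (2 residual degrees of freedom), the sex difference with 1 coefficient per sex. Male minus female used separate channels with a within-spot correlation of 0.793, which left out 21 genes without a value in 1 of the spots. In simulated signals this correlation was estimated too high, which would make that test strict. Adjustment was Benjamini-Hochberg over all genes, with 0.05 as threshold. The fits were tested on simulated data. The number of arrays limits the precision, and nothing in the labels says more of the animals than that they are 4 biological replicates per genotype.

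The replicate number is the number of the shared array, so it pairs the samples. Same-number deviations correlated at 0.685, 0.176, 0.560 and 0.646, and the ratio of an array is the block. Figures were drawn with matplotlib 3.10.9 and pandas 2.3.3 under Python 3.11.15. Genes were named by a rule. In each subunit these are up to 6 with the smallest p among those higher on all 4 arrays, up to 3 among those lower, 2 for each sex contrast, genes of known roles or disease, genes with 2 probes of opposite sign and the untested gene. In the lists of assembly factors, ribosomal proteins with other names and regulators these are the 2 with the smallest p in each direction. Other genes were named after their values were seen. The genes and lists were chosen with earlier results of these data known. Alternatives changed the background correction, normalization, values, filter, probe choice, dye term, block and arrays used.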

Additional observations from a re-analysis of the deposited data

Results flagged for a closer look

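Among 102 groups of 4 values of the named genes, 7 held 1 value far from the other 3, where chance gives about 1 in 20. In pair 2 the log2 ratio of Mrpl28 was 1.45, with 0.05 to 0.22 in the other pairs. Mrps12 had 1.45 there, with −0.16 to 0.05 in the others, and Mrps18a had 0.79, with −0.08 to 0.06 in the others. In wild type 2 the level of Mrpl12 was 12.63, with 13.17 to 13.26 in the other wild types, and that of Mrps11 was 7.93, with 8.18 to 8.23 in the others. In wild type 1 the level of Mrpl46 was 9.12, with 8.37 to 8.40 in the others, and that of Mrps27 was 8.61, with 8.07 to 8.15 in the others. Thus 5 of the 7 concern pair 2 or its wild-type liver.

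In 3 named genes both female pairs were above 0 and both male pairs below. The female minus male difference of the log2 ratio was 0.77 in Mrps18b (adjusted p = 0.823, limma), 0.32 in Mrps30 (adjusted p = 0.857, limma) and 0.17 in Mrpl10 (adjusted p = 0.911, limma). For Mrpl10 this holds for its brighter probe only, since its other probe had ratios of −0.12, 0.60, 0.05 and 0.11 in pairs 1 to 4.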

How the results depend on the processing

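The count of genes called by genotype, 0 in the fit described, was 1 with median centring, with no filter on dim probes and with no dye coefficient, and 3 both without the replicate block (separate channels) and with the array as a random block. Leaving out 1 array gave 0 to 1513 called genes, the highest without pair 4, when 623 were higher in mutants. Of the mitochondrial ribosomal proteins, 0 to 4 were called, the 4 without pair 4 being Mrpl15, Mrpl28, Mrpl46 and Mrps12 (Mrpl15 was named after its values were seen). These 4 of 77 are a smaller share than the 1513 of all 17531 genes called without pair 4. Without pair 4, pair 2 weighs as much as pairs 1 and 3 together in the fit. Likewise pair 4 has that weight without pair 2, pair 3 has it without pair 1, and pair 1 has it without pair 3. For these 4 genes, in the order named, pair 2 gave the highest ratios, 0.98, 1.45, 1.13 and 1.45. The cause of the calls was not tested. Pus1 passed the threshold at −2.07 with median centring, at −2.04 with no filter, no dye coefficient, no replicate block and a random block, and without pair 4, the 1 array whose removal brought it past. Over single arrays left out it ran from −2.11 to −1.96. Pus1 had no value among probes well above background in all 8 samples. Genes called between males and females, 37 in the fit described, numbered 6 among probes well above background in all 8 samples and 2073 by array means (chosen after seeing the data). The subunit medians stayed above 0 under every alternative run. They were 0.16 and 0.23 for the large and small subunit with median centring, when the median of all genes was 0.03, and 0.04 to 0.10 and 0.06 to 0.24 with 1 array left out. The replicate block changed no other call.

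Single genes near 0 changed sign. With processed signals Mrpl10 was 0.011 and Mrpl41 −0.0092, and with the series table Mrpl10 was 0.020 and Mrpl41 −0.0021. With median centring Mrpl10 was 0.061, Mrpl39 0.010, Mrps7 0.065, Dap3 0.021 and Gadd45gip1 0.078. With the mean over probes Mrpl10 was 0.077, Mrpl39 0.090, Mrpl41 −0.092, Mrps25 −0.014 and Dap3 0.034. With 1 array left out the ranges were −0.089 to 0.33 for Mrps18b, −0.58 to 0.030 for Ppargc1a, −0.033 to 0.39 for Mrps18a, −0.0030 to 0.24 for Mrps18c, −0.032 to 0.67 for Mrps12, −0.036 to 0.17 for Mrps30, −0.024 to 0.33 for Mrpl12, −0.16 to 0.020 for Mrpl39, −0.043 to 0.10 for Mrpl41, −0.49 to 0.017 for Mrm1, −0.0063 to 0.50 for Chchd1, −0.056 to 0.044 for Mrpl10 and −0.055 to 0.026 for Gadd45gip1. In all, 30 values of single genes changed sign. Another 629 values, of single genes and of subunit medians, were rated the same. The single genes among them kept sign and side of the threshold, and the subunit medians moved by less than their SD over arrays or livers.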

Other observations

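Of the 59 respiratory chain and ATP synthase genes tested, 5 had an unadjusted p below 0.05, all higher in mutants, against 4.73% of all genes higher at that level. Ndufs8, a subunit of complex I, had log2 ratios of 0.58, 0.98, 0.31 and 0.37 in pairs 1 to 4, and Cyc1, cytochrome c1 of complex III, had 0.38, 1.15, 0.14 and 0.38. Their fitted values were 0.56 ± 0.14 and 0.51 ± 0.16 (SE), with an adjusted p of 0.541 each (limma), and the other 3 were the complex I genes Ndufa11, Ndufc2 and Ndufa10 with 0.37, 0.31 and 0.47. These 5 were named after their values were seen.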
